A study of Mus musculus with 9 samples.

Results

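The 9 genes examined encode proteins that mature oligodendrocytes use to build central nervous system myelin: Mbp, Mog, Mag, Mobp, Opalin, Cnp, Ugt8a, Mal and Cldn11. They were chosen by name, and each was to be read from a probe set that names that gene alone, taking the probe set with the highest mean where a gene has several. Of the 9 genes, 8 had such a probe set among the 18820 genes measured. The probe set for Mbp, which encodes myelin basic protein, is also annotated to a second gene, so Mbp was not analysed here. The samples were hippocampi of C57BL/6 mice, 12 to 14 weeks old, profiled on 9 Affymetrix arrays. Mice given Maresin 1 before a tibia fracture operation gave 3 arrays, mice with the same operation alone gave 3, and control mice gave 3. Hippocampi were collected 72 h after the operation, and the labels state no operation, injection or anaesthesia for the controls. Maresin 1, a lipid mediator derived from docosahexaenoic acid, was given in a model of perioperative neurocognitive disorders, per the series title. The sample titles call the arrays of a group biological replicates.

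Oligodendrocytes wrap axons in a many-layered membrane that speeds conduction and supplies the axon with metabolites. Compact myelin forms where basic proteins hold the cytoplasmic faces of the membrane together and galactolipids pack the outer leaflets. Adhesion proteins keep the innermost layer at the axon, and claudin strands seal the layers to one another. In the hippocampus myelinated axons run mainly in the fimbria, the alveus and the layers crossed by afferent fibres. In bulk tissue, fewer oligodendrocytes and less RNA per oligodendrocyte cannot be told apart.

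Promoter windows are shown for 4 of the genes, Mog and Mal because they followed each other most closely over the arrays, and Opalin and Mobp because they followed the other genes least closely. Each window runs from 250 bases before to 50 bases after the annotated start, is written 5′ to 3′ on the gene's strand, and comes from RefSeq on build GRCm38.p6. All 8 measured genes had at least 1 window in that table, 10 windows in all, of which Mag had 3. Windows of the same gene are not separate cases. Capitals mark ACAAAG or ACAATG, the letters of a SOX family core, CTGGCAC or CTGGTAC, those of a MYRF core, and CAGCTG, an E-box, each searched on both strands.
Mog, chr17:37023349-37023648, minus strand: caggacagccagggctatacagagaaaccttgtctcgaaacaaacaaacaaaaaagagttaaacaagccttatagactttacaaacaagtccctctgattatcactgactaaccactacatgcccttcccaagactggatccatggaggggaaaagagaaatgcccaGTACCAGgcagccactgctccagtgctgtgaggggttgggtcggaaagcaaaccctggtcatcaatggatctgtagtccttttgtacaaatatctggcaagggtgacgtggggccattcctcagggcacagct
Mal, chr2:127656646-127656945, minus strand: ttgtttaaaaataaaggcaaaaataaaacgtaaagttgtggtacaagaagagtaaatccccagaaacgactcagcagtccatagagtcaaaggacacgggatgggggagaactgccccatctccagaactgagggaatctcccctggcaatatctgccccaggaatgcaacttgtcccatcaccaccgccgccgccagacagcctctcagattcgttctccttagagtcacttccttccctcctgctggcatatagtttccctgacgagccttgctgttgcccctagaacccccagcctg
Opalin, chr19:41077064-41077363, minus strand: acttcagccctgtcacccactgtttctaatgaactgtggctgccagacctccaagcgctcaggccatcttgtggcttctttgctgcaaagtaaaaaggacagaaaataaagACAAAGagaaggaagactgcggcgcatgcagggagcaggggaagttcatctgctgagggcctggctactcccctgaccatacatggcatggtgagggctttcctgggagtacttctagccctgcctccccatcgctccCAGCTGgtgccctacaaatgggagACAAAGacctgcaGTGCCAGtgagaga
Mobp, chr9:120149492-120149791, plus strand: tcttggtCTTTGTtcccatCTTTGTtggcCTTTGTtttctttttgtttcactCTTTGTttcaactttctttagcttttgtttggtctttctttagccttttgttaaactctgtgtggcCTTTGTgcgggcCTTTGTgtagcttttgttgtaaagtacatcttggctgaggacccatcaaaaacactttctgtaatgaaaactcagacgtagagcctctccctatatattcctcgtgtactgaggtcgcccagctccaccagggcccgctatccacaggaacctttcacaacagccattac
The Mobp window holds ACAAAG 6 times, each time as its reverse complement, and 1 of the 32851 windows in the table holds it that often. At least 1 copy was present in 5 of the 10 windows, those being of 4 genes, Cnp, Mag, Mobp and Opalin, against 18.7% of all windows. CTGGCAC was found in 4 of the 10 windows, of 3 genes, Cnp, Mag and Opalin, and in 5.01% of all windows. CTGGTAC was found in 1 of the 10, that of Mog, and in 2.24% of all windows, and CAGCTG in 1 of the 10, that of Opalin, and in 16.3%. ACAATG was in none of the 10 windows and in 12.6% of all windows. The Mal window held none of these letters. A match describes the sequence and shows no binding.

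The deposited signals had medians from 54.1 to 100.1 between arrays, so they were quantile normalized, and levels are given as log2(signal + 16). All 8 genes lay above 5.86, the 95th percentile of the mean levels of 990 olfactory receptor genes, taken here as a background level for hippocampus. Control replicates 2 and 3 stood apart by choroid plexus transcripts: the mean deviation of 13 choroid plexus genes from their own 9-array means was 2.59 and 2.95 there, against -0.93 in control replicate 1 and -0.91 to -0.65 in the 6 operated mice. Over the 8 myelin genes the same score was 0.02 for control replicate 2, and for control replicate 3 it was -0.25. The part of choroid plexus tissue in the myelin values was not tested.

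Mog encodes an immunoglobulin family protein on the outermost layer of myelin. Its level was 10.76, 10.67 and 10.44 in the Maresin 1 arrays, 10.70, 10.46 and 10.28 in the surgery arrays, and 10.49, 10.58 and 10.26 in the control arrays. Each group held a high and a low array, and all 3 groups overlapped. Mag encodes a sialic acid binding lectin of the innermost layer, facing the axon. It stood at 10.73, 10.70 and 10.57 with Maresin 1, at 10.71, 10.39 and 10.51 after surgery, and at 10.78, 10.61 and 10.45 in control. Surgery replicate 2 was the lowest of the 9 arrays and control replicate 1 the highest.

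Mobp encodes a basic protein of the cytoplasmic face of compact myelin. It stood at 11.41, 11.32 and 11.34 with Maresin 1, at 11.44, 11.45 and 11.27 after surgery, and at 11.30, 11.34 and 10.96 in control. Control replicate 3 lay below the other 8 arrays. Opalin encodes a transmembrane sialoglycoprotein that, in the brain, is found in oligodendrocytes. It stood at 9.45, 9.28 and 9.21 with Maresin 1, at 9.27, 8.77 and 8.87 after surgery, and at 9.23, 9.25 and 9.02 in control. Surgery replicates 2 and 3 were below every other array, while surgery replicate 1 was the third highest of the 9.

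Cnp encodes a cyclic nucleotide phosphodiesterase of the uncompacted, cytoplasm-filled parts of myelin. Its level was 11.58, 11.58 and 11.31 with Maresin 1, 11.45, 11.33 and 11.45 after surgery, and 11.45, 11.43 and 11.29 in control. It had the smallest range over the 9 arrays, 0.30, and its spread within groups (SD 0.11) was close to that of the median gene (0.11). Ugt8a encodes the transferase that makes galactosylceramide, the main glycolipid of myelin. It stood at 10.22, 10.19 and 9.97 with Maresin 1, at 10.07, 9.84 and 9.90 after surgery, and at 10.14, 9.90 and 9.59 in control. The spread was widest in control, where its SD was 0.28.

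Mal encodes a proteolipid of membrane rafts that takes part in sorting lipids and proteins to myelin. It stood at 11.08, 11.01 and 10.85 with Maresin 1, at 11.05, 10.91 and 10.68 after surgery, and at 10.87, 10.82 and 10.45 in control. The 2 lowest arrays were control replicate 3 and surgery replicate 3. Cldn11 encodes the claudin of the tight junction strands between myelin layers, and cells of the arachnoid make it as well. It stood at 11.14, 11.16 and 10.88 with Maresin 1, at 11.25, 11.02 and 10.89 after surgery, and at 11.17, 11.19 and 10.87 in control. The lowest array of each group stood close to the lowest of the other groups, so the groups covered nearly the same span.

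**Figure D1:**
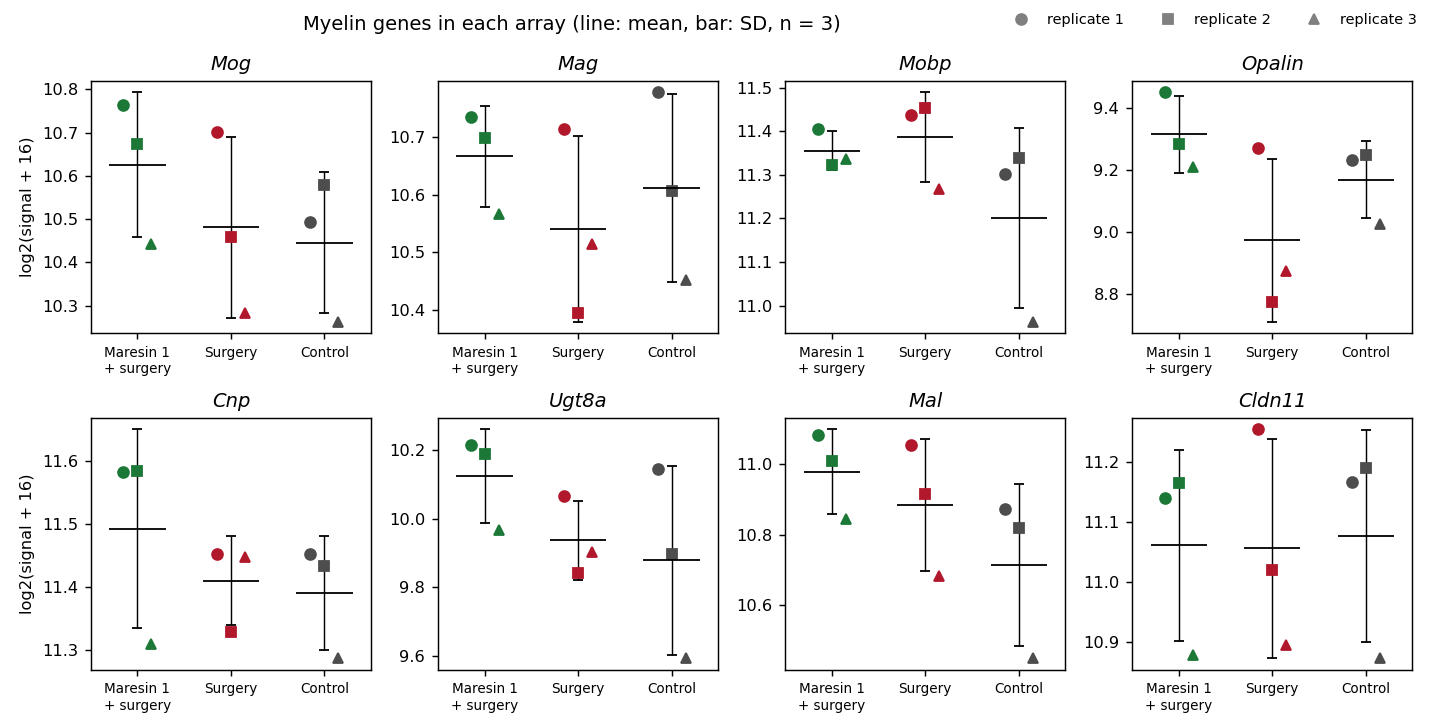
Level of each of the 8 myelin genes, log2(signal + 16) after quantile normalization, in the 3 Maresin 1 with surgery arrays, the 3 surgery arrays and the 3 control arrays; points are arrays, horizontal lines group means and bars SD (n = 3). For every gene the 3 groups overlap, and the vertical axes do not start at 0.

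Whether the treatment moved myelin transcripts in operated mice was read from the Maresin 1 arrays against the surgery arrays. Opalin had the largest difference, with 9.31 ± 0.12 in Maresin 1 mice and 8.97 ± 0.26 in surgery mice (SD, n = 3 each), a log2 difference of 0.34 (SE 0.11, 95% interval 0.09 to 0.59). It did not pass limma's Benjamini-Hochberg threshold over all genes (adjusted p = 0.859), and the groups overlapped, since surgery replicate 1 at 9.27 was higher than Maresin 1 replicate 3 at 9.21. Ugt8a differed by 0.19 (interval -0.06 to 0.44), Mog by 0.15 (-0.09 to 0.38), Mag by 0.13 (-0.07 to 0.32), Mal by 0.09 (-0.14 to 0.33) and Cnp by 0.08 (-0.07 to 0.24). Cldn11 differed by 0.00 (-0.22 to 0.23) and Mobp by -0.03 (-0.21 to 0.15).

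None of the 8 genes was called, and limma called 0 of 18820 genes in this comparison (0%). At an unadjusted p under 0.05, 1 of the 8 genes, Opalin, was higher, against 1.96% of all genes, and 0 of the 8 were lower, against 3.7%. In either direction 1065 genes passed (5.66%). The difference was above 0 for 7 of the 8 genes, against 41.7% of all genes, with a median of 0.11 where all genes had -0.02. With each array scaled to one median in place of quantile normalization the difference was above 0 for 2 of the 8, Opalin and Ugt8a, and the median was -0.06 where all genes had -0.09. The direction of Mog, Mag, Cnp, Mal and Cldn11 therefore turned with the scaling, and that of Opalin, 0.21 with that scaling, did not.

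What the operation left after 72 h was read from the surgery arrays against the control arrays. Mobp differed most toward higher values, with 11.39 ± 0.10 in surgery mice and 11.20 ± 0.21 in control mice (SD, n = 3 each), a log2 difference of 0.19 (SE 0.08, limma adjusted p = 0.786). Its interval was 0.00 to 0.37, and its range over the 18 alternatives was 0.07 to 0.33. Opalin was at 8.97 ± 0.26 in surgery mice and 9.17 ± 0.12 in control mice, a difference of -0.19 (SE 0.11, interval -0.44 to 0.05). Leaving out surgery replicate 1 gave -0.34 for Opalin, leaving out surgery replicate 2 gave -0.095, and scaling each array to one median gave -0.034. Mal differed by 0.17 (-0.07 to 0.41), Ugt8a by 0.06 (-0.19 to 0.31), Mog by 0.04 (-0.20 to 0.27), Cnp by 0.02 (-0.14 to 0.17), Cldn11 by -0.02 (-0.24 to 0.20) and Mag by -0.07 (-0.26 to 0.12).

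No myelin gene was called here either, with 0 of 18820 genes called (0%) and 1168 (6.21%) at an unadjusted p under 0.05. Of the 8, Mobp was higher at that level, against 3.9% of all genes, and 0 were lower, against 2.31%. The difference was above 0 for 5 of the 8, against 58.4% of all genes, and the median was 0.03, against 0.02 over all genes. With each array scaled to one median or centred, or without control replicate 1, it was above 0 for 7 of the 8, and without control replicate 3 or without surgery replicate 1 for 2 of the 8. Against control replicate 1 alone, the control array without the choroid plexus signal, it was also above 0 for 2 of the 8.

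The Maresin 1 arrays were also set against the control arrays, a comparison that shares its arrays with both comparisons above. Mal was at 10.98 ± 0.12 in Maresin 1 mice and 10.71 ± 0.23 in control mice (SD, n = 3 each), a log2 difference of 0.26 (SE 0.11, interval 0.03 to 0.50, limma adjusted p = 0.38). Without control replicate 3 the Mal difference was 0.13, and against control replicate 1 alone it was 0.11. Ugt8a differed by 0.24 (interval -0.01 to 0.49), Mog by 0.18 (-0.06 to 0.42), Mobp by 0.15 (-0.03 to 0.34), Opalin by 0.15 (-0.10 to 0.39), Cnp by 0.10 (-0.05 to 0.26) and Mag by 0.05 (-0.14 to 0.25). Cldn11 differed by -0.02 (-0.24 to 0.21).

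No myelin gene was called, whereas 16 of 18820 genes (0.085%) were. At an unadjusted p under 0.05 Mal was the one member higher, against 5.87% of all genes, and 0 were lower, against 5.61%. In either direction 11.5% of all genes passed. The difference was above 0 for 7 of the 8, against 49% of all genes, with a median of 0.15 where all genes had 0.00. These 7 of 8 also stood above 0 with each array scaled to one median, while 5 of 8 did against control replicate 1 alone. In that setting Ugt8a stood at -0.02 and Mag at -0.11. In none of the 3 comparisons were the 2 groups free of overlap for any of the 8 genes, against 4.79%, 7.71% and 7.61% of all genes that were higher without overlap with Maresin 1 against surgery, after surgery against control and with Maresin 1 against control. Lower without overlap were 8.2%, 3.82% and 6.71% of all genes in the same comparisons.

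**Figure D2:**
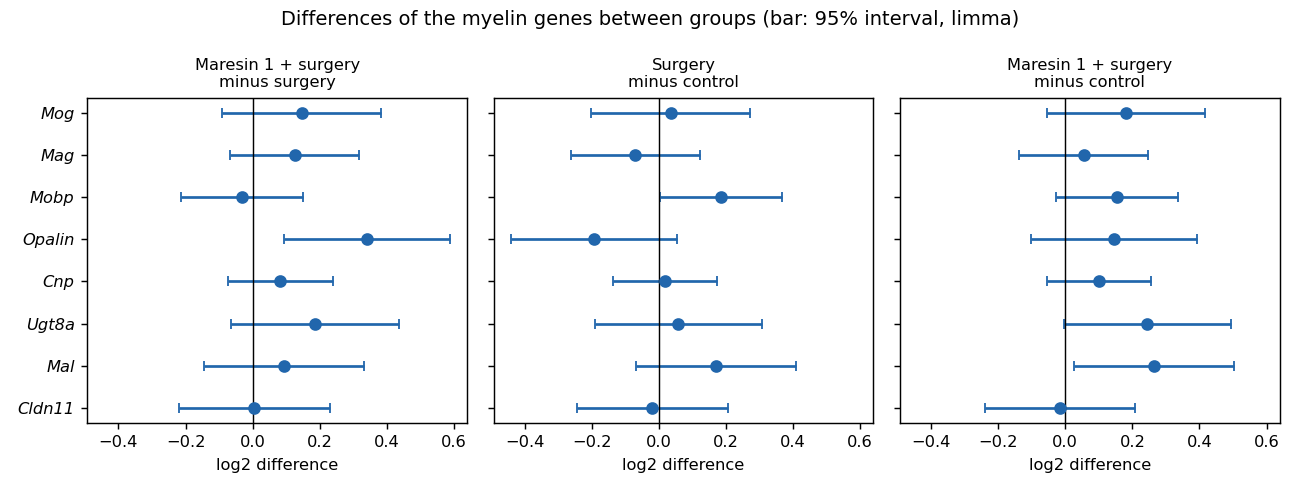
Log2 differences of the 8 myelin genes for Maresin 1 with surgery minus surgery, surgery minus control, and Maresin 1 with surgery minus control, with 95% intervals from the limma fit over all 9 arrays. The interval leaves 0 for Opalin, Mobp and Mal in 1 comparison each, with adjusted p of 0.859, 0.786 and 0.38.

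The arrays of a group differed from one another in most of these genes at once. In Maresin 1 replicates 1 and 2 and in surgery replicate 1, all 8 genes lay above their own means over the 9 arrays, and in control replicate 3 none did. Maresin 1 replicate 1 was the highest array for 4 genes, Mog, Opalin, Ugt8a and Mal, and control replicate 3 the lowest for 6, all but Mag and Opalin. The mean deviation of the 8 genes was 0.18, 0.12 and -0.05 in the Maresin 1 arrays, 0.13, -0.09 and -0.13 in the surgery arrays, and 0.06, 0.02 and -0.25 in the control arrays. Group means of this score were 0.09 ± 0.12 with Maresin 1, -0.03 ± 0.14 after surgery and -0.05 ± 0.17 in control (SD, n = 3 each), and no difference between 2 of these means was larger than the wider of their 2 SDs.

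**Figure D3:**
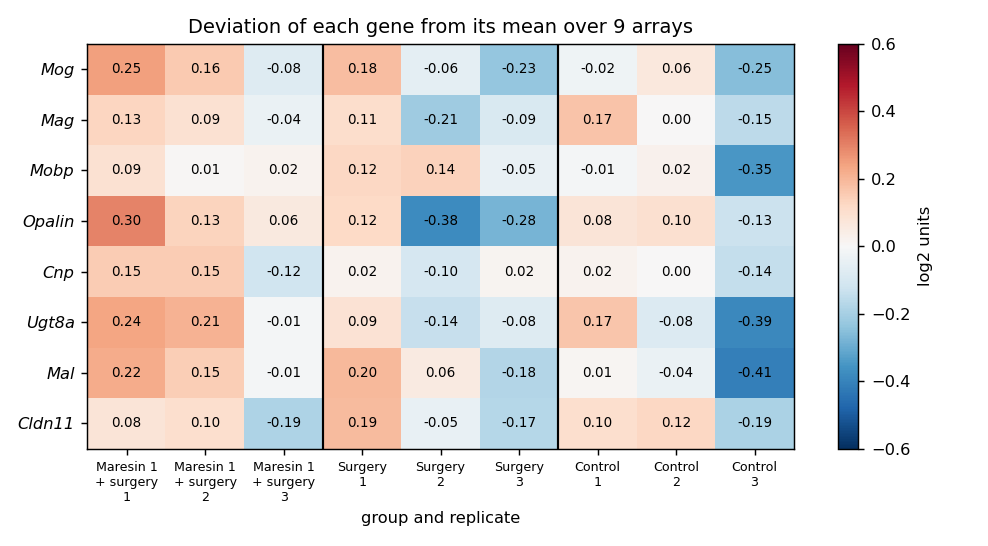
Deviation of each myelin gene (rows) from its own mean over the 9 arrays (columns, 3 per group), in log2 units, with red above and blue below the mean. Whole columns share a colour: Maresin 1 replicates 1 and 2 and surgery replicate 1 are above the mean for all 8 genes, control replicate 3 is below it for all 8.

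Over the 9 arrays the Pearson correlation between 2 of these genes was above 0 for all 28 pairs, with a median of 0.704 and a range of 0.2 to 0.904. The 9 arrays share their RNA input and normalization, and these values describe the arrays only. The closest pair was Mog and Mal. With the group means removed the median was 0.748, so the median was no lower inside the groups. Each gene was also set against the mean of the other 7: Mog followed it with r = 0.931, Ugt8a with 0.899, Mal with 0.879, Mag with 0.83, Cldn11 with 0.797, Cnp with 0.778, Opalin with 0.699 and Mobp with 0.61. Spearman's rho was between 0.667 and 0.95 for the other 7 genes and 0.433 for Mobp. Without the 2 arrays farthest from the median the correlation was 0.69 to 0.887 for the other 7 and 0.057 for Mobp, which thus rested on those 2 arrays, control replicate 3 and Maresin 1 replicate 1. Among the 6 operated mice, the 7 pairs with Mobp had a median of 0.074, against 0.764 for the 21 pairs without it. The pairs with Mobp differed widely, from -0.159 to 0.67 in these mice and from 0.2 to 0.883 over the 9 arrays. The highest in both was the pair with Mal.

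Of 9400 other genes with a level above that of the median gene, 171 (1.82%) had a correlation of 0.61 or more with the score of the 8 genes, and the median correlation was -0.02. The 8 with the highest values were named. Sema4d, a transmembrane semaphorin that oligodendrocytes carry, led with r = 0.956 (rho 0.917). Tspan2, a tetraspanin of oligodendrocytes, followed with r = 0.949 (rho 0.933), then the ubiquitin ligase gene Marchf8 with 0.898 and Jam3, a junctional adhesion molecule, with 0.884. Spry1, an inhibitor of growth factor signalling, had 0.879, Fa2h, which hydroxylates the fatty acids of myelin galactolipids, 0.875, the aggrecan-cleaving protease gene Adamts4 0.861, and Timmdc1, of complex I assembly, 0.853. Sema4d was at 9.52, 9.50 and 9.37 in the Maresin 1 arrays, 9.54, 9.38 and 9.39 in the surgery arrays and 9.50, 9.47 and 9.29 in the control arrays. Its 2 highest arrays were surgery replicate 1 and Maresin 1 replicate 1, and its lowest was control replicate 3.

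**Figure D4:**
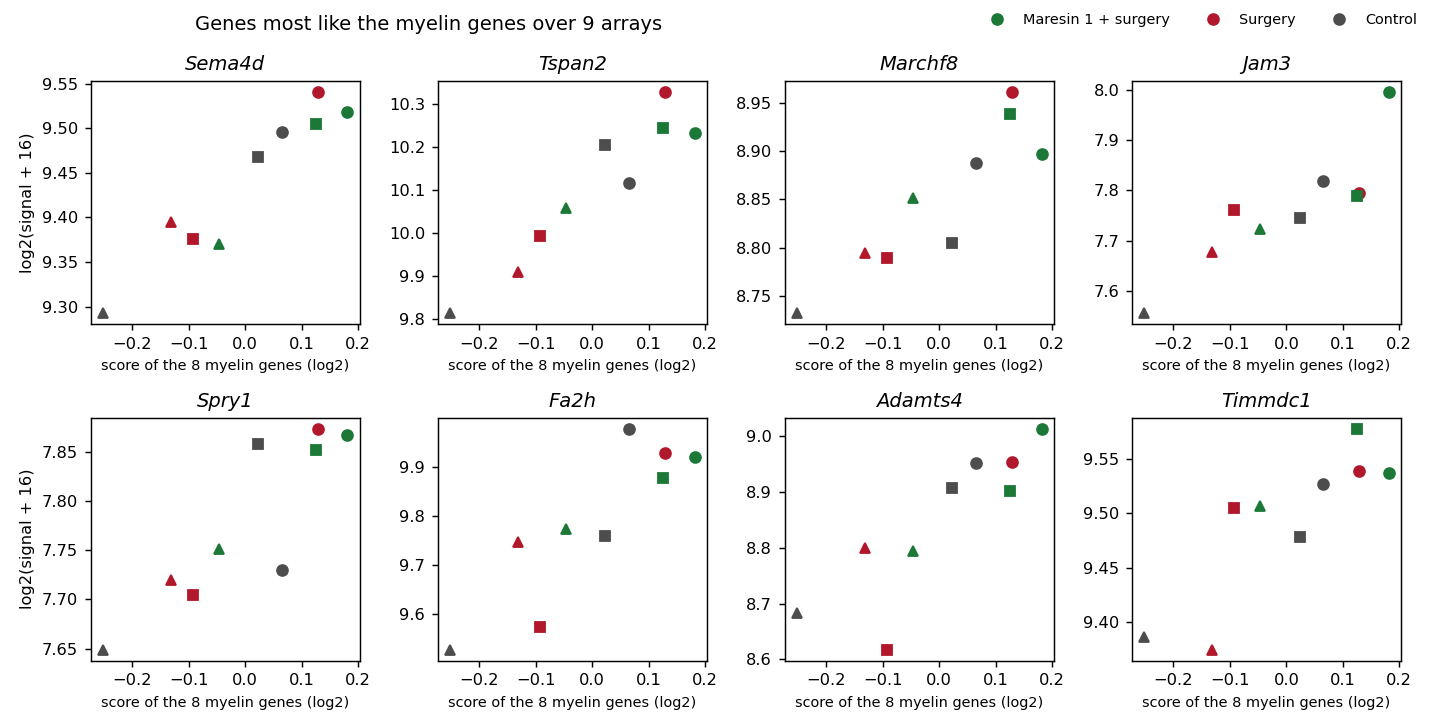
Level of the 8 genes most like the myelin genes, log2(signal + 16), against the mean deviation of the 8 myelin genes in each of the 9 arrays; circles are replicate 1, squares replicate 2 and triangles replicate 3. Correlations run from 0.853 for Timmdc1 to 0.956 for Sema4d, and control replicate 3 is the lowest array for 6 of the 8 genes, all but Adamts4 and Timmdc1.

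Of 24 other measured genes of myelin and mature oligodendrocytes, 22 correlated above 0 with the score of the 8 (median r 0.578). With Maresin 1 against surgery 18 of the 24 were higher and 6 lower, with 0 called and a median difference of 0.10. Gpr37, a receptor of myelinating oligodendrocytes, was at 10.56, 10.62 and 10.55 with Maresin 1, above all of 10.51, 10.19 and 10.35 after surgery. Its difference was 0.23 (SE 0.07, limma adjusted p = 0.859), and it was 0.064 with each array scaled to one median and 0.15 without surgery replicate 2. After surgery against control 12 of the 24 were higher and 12 lower, with 0 called and a median of 0.00. Apod, a lipid-binding lipocalin of oligodendrocytes and astrocytes, differed by 0.18 (SE 0.05, adjusted p = 0.64), with no overlap. With Maresin 1 against control 20 were higher and 4 lower, with 0 called and a median of 0.10. Il33, an alarmin that oligodendrocytes and astrocytes store in their nuclei, differed by 0.40 there (SE 0.11, adjusted p = 0.175), with no overlap. Higher without overlap were 1, 1 and 6 of the 24 in the 3 comparisons, against 4.79%, 7.71% and 7.61% of all genes. Lower without overlap were 0 of the 24 in each, against 8.2%, 3.82% and 6.71%.

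Of 19 measured genes of myelin lipid synthesis, 11 stood higher with Maresin 1 than after surgery, 9 after surgery than in control and 11 with Maresin 1 than in control, with 0 called and medians of 0.02, -0.01 and 0.02. Elovl7, a fatty acid elongase, differed by -0.50 between surgery and control (SE 0.15, adjusted p = 0.64). It stood at 8.90, 8.51 and 8.49 after surgery and at 8.71, 9.26 and 9.44 in control, so the high values were those of control replicates 2 and 3, the arrays with choroid plexus signal. Without control replicate 1 Elovl7 passed the limma threshold at -0.72 (adjusted p = 0.00466), and against control replicate 1 alone its difference was -0.079 (adjusted p = 0.925).

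Among 11 measured transcription factor genes of the lineage, 8 stood higher with Maresin 1 than after surgery, 2 after surgery than in control and 6 with Maresin 1 than in control, with 0 called and medians of 0.05, -0.03 and 0.04. Olig2, a factor of the whole lineage, was at 9.12, 8.99 and 8.88 with Maresin 1, 9.26, 8.99 and 8.85 after surgery and 9.39, 9.41 and 9.26 in control. After quantile normalization every operated array lay below every control array, the closest being surgery replicate 1 (9.255) and control replicate 3 (9.264). The share of all genes with that order was not computed. The deposited signals, which also hold differences in signal between arrays, overlapped, with 576.83 in surgery replicate 2 and 502.27 in control replicate 2. The Olig2 difference was -0.33 after surgery (SE 0.10, adjusted p = 0.64) and -0.36 with Maresin 1 (SE 0.10, adjusted p = 0.177), and neither passed the test. It ran over the 18 alternatives from -0.44 to -0.16 after surgery and from -0.42 to -0.30 with Maresin 1. In each of these comparisons 1 of the 11 was lower without overlap, against 3.82% and 6.71% of all genes. Sox10, which drives myelin genes, differed by -0.01 in each of the 3 comparisons. Myrf, a factor needed for myelination, differed by 0.05 with Maresin 1 against surgery, by -0.15 after surgery against control and by -0.10 with Maresin 1 against control.

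Of 11 measured genes of newly formed oligodendrocytes, 9 had a difference above 0 with Maresin 1 against surgery, with 0 called and a median of 0.09. Rras2, a small GTPase gene of oligodendrocyte differentiation, differed by 0.26 (SE 0.09, adjusted p = 0.859) with no overlap. With Maresin 1 against control 8 were higher, with a median of 0.11, and Mpzl1 differed by 0.32 (SE 0.07, adjusted p = 0.0916) with no overlap. In each of these 2 comparisons 2 of the 11 were higher without overlap and 0 lower. Of all genes 4.79% and 7.61% were higher without overlap there, and 8.2% and 6.71% lower. After surgery against control 5 were higher and 6 lower, with a median of -0.01. The 14 measured genes of oligodendrocyte precursors had a median correlation of 0.016 with the score of the 8 myelin genes. Of these 11 stood higher with Maresin 1 than after surgery, 5 after surgery than in control and 7 with Maresin 1 than in control, with 0 called and medians of 0.03, -0.02 and -0.01. Pdgfra, the growth factor receptor that marks precursors, differed by 0.07, 0.05 and 0.12. With Maresin 1 against control, the proteoglycan gene Cspg4 differed by -0.26 (SE 0.08, adjusted p = 0.249) and the signalling adaptor gene Traf4 by -0.28 (SE 0.10, adjusted p = 0.287), both without overlap. Ptprz1, a receptor-type phosphatase gene of precursors and astrocytes, had the opposite sign at 0.15 (SE 0.07, adjusted p = 0.411), with overlap. Among the 14 genes, 1 was higher and 2 were lower without overlap in that comparison, against 7.61% and 6.71% of all genes. Deposited signals of these 4 genes without overlap did overlap. Control replicate 2 was at 174.05 for Cspg4 and 183.04 for Traf4, and Maresin 1 replicate 1 at 202.28 and 206.44. Rras2 was at 320.66 in Maresin 1 replicate 1 and 349.69 in surgery replicate 2. Mpzl1 was at 683.37 in Maresin 1 replicate 3 and 823.41 in control replicate 1.

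**Figure D5:**
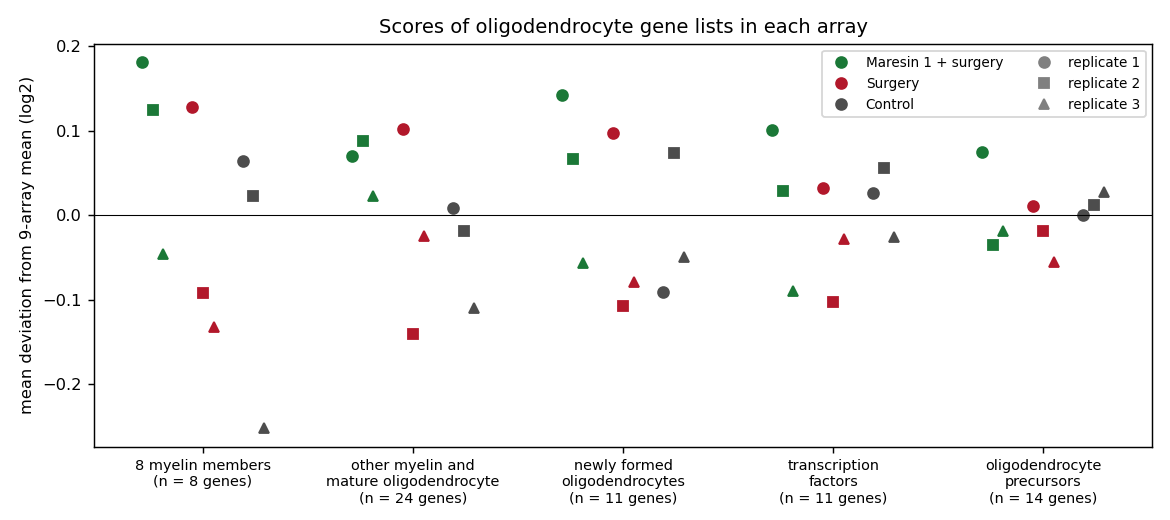
Mean deviation from the 9-array mean (log2) of the 8 myelin genes and of 4 other oligodendrocyte gene lists in each array, coloured by group and shaped by replicate. The spread between arrays runs from -0.25 to 0.18 for the 8 myelin genes and from -0.06 to 0.08 for the 14 precursor genes.

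Markers of other cells are given as counts beside these results. Of 8 measured Schwann cell genes, 3 lay above that background level, and the median difference was -0.02, 0.07 and 0.05 with Maresin 1 against surgery, after surgery against control and with Maresin 1 against control. All 8 measured endothelial genes were higher after surgery than in control (median 0.37) and with Maresin 1 than in control (median 0.40), and 5 of 8 with Maresin 1 than after surgery (median 0.04), with 0 called. Of 12 leptomeningeal and arachnoid genes, 3 stood higher with Maresin 1 than after surgery (median -0.18), 9 after surgery than in control (median 0.07) and 1 with Maresin 1 than in control (median -0.04). Of 11 neuronal genes, 3, 8 and 4 were higher in these comparisons (medians -0.07, 0.01 and -0.04). Astrocyte genes had medians of 0.02, 0.08 and 0.10 and microglial genes -0.04, 0.11 and 0.08. All 9 thalamic genes were higher after surgery than in control (median 0.09), with medians of -0.05 with Maresin 1 against surgery and 0.01 with Maresin 1 against control, and 6 striatal genes had medians of 0.02, 0.04 and 0.03 in the same 3 comparisons as before. The part of these tissues in the spread of the myelin genes was not tested.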

How the data were processed

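Hippocampal RNA of 9 mice, 6 µg per array, was hybridized to Affymetrix arrays. The deposited values are intensities on a linear scale for 35556 probe sets, made by the authors. The submitters' processing notes name Affymetrix Expression Console, and which summary method it ran is not stated there. The probe table gives 1 gene for 21218 of them and more for 1881, and does not list 12457, and 21185 of the gene identifiers matched RefSeq's GRCm38.p6 table.

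Here the intensities were quantile normalized over all probe sets, 16 was added and log2 taken. Overlap between groups was read from these levels, and genes without overlap were not counted under another scaling. Where a gene had several probe sets, the one with the highest mean was kept, with no filter on dim genes. limma 3.58.1 (R 4.3.3) fitted 1 linear model to all 9 arrays, its variance prior following mean expression, and p-values were adjusted by Benjamini-Hochberg over 18820 genes. A gene was called at an adjusted p under 0.05. The pipeline was tested on simulated data. Precision is limited by the number of arrays, 3 per group. Groups were taken from the sample titles.

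The members and lists were chosen with earlier results of these data known. From each list, up to 3 genes with the smallest p in any comparison may be named, beside Sox10, Olig2, Myrf and Pdgfra and the 8 genes most like the members.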

Additional observations from a re-analysis of the deposited data

How the results depend on the processing

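In each of the 3 comparisons none of the 8 myelin genes was called under any of 18 alternatives, with a smallest limma adjusted p of 0.414 for Opalin (Maresin 1 against surgery), 0.393 for Mobp (surgery against control) and 0.0964 for Ugt8a (Maresin 1 against control). In both comparisons with control, 1 of the 18 had a single control array. The median difference of the 8 ran from -0.06 to 0.20, from -0.08 to 0.18 and from 0.05 to 0.20 over these alternatives. For Maresin 1 against surgery it was -0.063 with each array scaled to one median and -0.042 with each centred on its median. The median of all genes, -0.02 after quantile normalization, was -0.09 with either, and the cause was not tested.

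In the following settings the sign of a difference turned or the difference came to 0. For Maresin 1 with surgery against surgery, scaling to one median gave Mog -0.032, Mag -0.045, Cnp -0.091, Mal -0.081, Cldn11 -0.16, Apod -0.14, Myrf -0.091, Mpzl1 0.00 and Pdgfra -0.074, no normalization gave Cldn11 -0.052 and Apod -0.038, centring gave Mog -0.011, Mag -0.024, Cnp -0.069, Mal -0.059, Cldn11 -0.14, Apod -0.12, Myrf -0.072 and Pdgfra -0.055 and array weights gave Apod -0.018 and Sox10 0.036. For surgery against control, scaling to one median gave Mag 0.084, Cldn11 0.13, Gpr37 0.13, Sox10 0.16, Myrf 0.017 and Rras2 0.079, no normalization gave Sox10 0.019, centring gave Mag 0.058, Cldn11 0.10, Gpr37 0.11, Sox10 0.13 and Rras2 0.060 and control replicate 1 alone gave Mog -0.013, Cnp -0.043 and Ugt8a -0.21. For Maresin 1 with surgery against control, scaling to one median gave Sox10 0.022, centring gave Sox10 0.018, array weights gave Cldn11 0.025 and control replicate 1 alone gave Mag -0.11, Ugt8a -0.021 and Elovl7 0.17.

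With single arrays left out, signs turned within these ranges. For Maresin 1 with surgery against surgery they were -0.042 to 0.053 for Apod, -0.13 to 0.076 for Olig2, -0.094 to 0.046 for Sox10, -0.090 to 0.0027 for Mobp, -0.076 to 0.10 for Cldn11, -0.020 to 0.086 for Myrf, -0.0064 to 0.18 for Mal and -6e-04 to 0.13 for Pdgfra. For surgery against control they were -0.16 to 0.012 for Mag, -0.12 to 0.061 for Cldn11, -0.059 to 0.080 for Sox10, -0.075 to 0.13 for Mog, -0.033 to 0.059 for Cnp, -0.085 to 0.19 for Ugt8a and -0.11 to 0.051 for Gpr37. For Maresin 1 with surgery against control they were -0.12 to 0.076 for Cldn11, -0.057 to 0.025 for Sox10 and -0.026 to 0.14 for Mag.

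The number of genes called between surgery and control, 0 here, was 37 with scaling, 67 with centring, 42 without normalization, and 0 to 169 with single arrays left out, the 169 without control replicate 1. Between Maresin 1 and surgery, 0 here, it was 1 with centring. Between Maresin 1 and control, 16 here, it was 38 with scaling, 63 with centring, 43 without normalization, 4 against control replicate 1 alone (1 array, assumed to vary like the other groups), 0 without the mean trend, 0 with the fit limited to the 2 groups, and 0 to 245 with single arrays left out, the 245 without control replicate 1 and 0 without control replicate 2 or any 1 of the Maresin 1 arrays. With the replicate number as a block it was 0. The block called none of the 8 genes. Deviations of same-numbered arrays correlated between -0.244 and 0.055. Differently numbered arrays were not set beside them, so these values cannot decide whether the numbers pair the arrays.

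The median correlation between the 8 genes was 0.83 with scaling, 0.818 with centring, 0.914 without normalization, 0.688 in the operated mice and 0.642 to 0.772 with single arrays left out. The value without normalization also holds the differences in signal between arrays, whose medians ran from 54.1 to 100.1. No all-gene value was computed for these settings. Control replicate 1 alone as control, the fit of operated mice alone and the correlation settings were chosen after seeing the data.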

Other observations

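Opalin and Mobp differed most from the other myelin genes in surgery replicate 2 and hardly in surgery replicate 1, a pattern that was chosen after its values were seen. In surgery replicate 3 Mobp departed by 0.10, no more than in Maresin 1 replicate 2 (-0.13) or control replicate 3 (-0.11). Departures in surgery replicates 2 and 3 were not particular to Opalin and Mobp. Less the mean deviation of all measured myelin genes, Cnp stood at 0.15 in surgery replicate 3, Opalin at -0.14 and Mobp at 0.09. In surgery replicate 2 Mal stood at 0.15 and Mag at -0.12, with Opalin farther out at -0.28 and Mobp at 0.23. By the same measure Mal was at -0.05, -0.06 and -0.16 in the control arrays. These 3 arrays lay below all 6 operated arrays, of which surgery replicate 3 was the lowest at -0.04. The deviation of Opalin from its own mean, less the mean deviation of the other 7 genes, was 0.13, 0.01 and 0.12 in the Maresin 1 arrays, -0.01, -0.32 and -0.17 in the surgery arrays, and 0.02, 0.08 and 0.14 in the control arrays. All 3 surgery arrays lay below the other 6, but surgery replicate 1 (-0.0106) was close to Maresin 1 replicate 2 (0.0091). An order of this kind was not particular to Opalin, as the control arrays for Mal show, and no share over all genes was computed. For Opalin median scaling kept the order, at -0.35 to -0.05 after surgery, 0.04 to 0.15 with Maresin 1 and -0.01 to 0.14 in control. A factor applied to a whole array nearly cancels in this measure, so the scaled values are no separate check of the order. The same measure for Mobp was -0.10, -0.13 and 0.08 in the Maresin 1 arrays, -0.01, 0.27 and 0.10 in the surgery arrays, and -0.09, 0.00 and -0.11 in the control arrays, where the surgery arrays overlap both other groups. In surgery replicate 2 Mobp was thus at its highest of the 9 arrays and Opalin at its lowest. A ratio of this kind shows that the genes differed from one another within an array, and not which of them changed.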
